A study of Mus musculus with 16 samples.

Results

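Wnt signalling was examined in mouse embryos with and without the miR-302 microRNAs. The genes were every Wnt ligand, Frizzled receptor (Fzd), secreted Frizzled-related protein (Sfrp) and Dickkopf inhibitor (Dkk) that matched a name rule in the tables, with 19 further receptors, transducers, transcription factors and targets chosen by name. The rule gave 56 of 24421 genes: 19 ligands, 2 secreted agonists, 10 receptors, 2 coreceptors, 8 secreted inhibitors, 7 signal transducers, 4 transcription factors and 4 feedback targets. The rule uses no measured value.

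Wnt proteins are secreted ligands that bind a Frizzled receptor together with an Lrp coreceptor. Binding recruits Dishevelled (Dvl) and stops a complex of Axin, Apc and Gsk3b from marking beta-catenin (Ctnnb1) for destruction, and beta-catenin then acts with Tcf and Lef factors on target genes. Wnt signals help to form the primitive streak, induce the neural crest at the border of the neural plate and guide the fate of migrating crest cells. Wnt5a and Wnt11 are best known for signalling without beta-catenin, through planar cell polarity.

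RNA was sequenced from wild-type (WT) and miR-302 knockout (KO) C57BL/6 embryos of 3 ages, from embryonic day 7.5 (E7.5) to E9.5. At E7.5 whole embryos were used, with 2 WT and 2 KO libraries. At E8.5 sorted Wnt1-Cre positive cells gave 3 WT libraries (WT1_5s, WT2, WT3) and 4 KO libraries, and at E9.5 sorted Sox10-positive cells gave 2 WT and 2 KO libraries. Another E8.5 library, KO4_5s, was not analysed here. The labels give each library a code number of unstated meaning. At E7.5 it was 237 for KO2 and 239 for the other libraries. At E8.5 it was 128 for KO1 and KO2, 157 for KO3, 163 for WT1_5s, 214 for WT3, and 169 for both KO4 and WT2. Wnt1-Cre expresses Cre recombinase from Wnt1 control sequences, so the gate at E8.5 is tied to Wnt1 itself. The labels do not say how the allele was made, whether the E7.5 tissue was free of maternal cells, or whether libraries came from separate animals or litters. The p-values therefore measure only the spread between these libraries, which may be technical.

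The libraries held 4912827 to 14861728 gene-assigned reads, recovered from the deposited values. The 4 miR-302 precursor genes had 14 and 25 reads in the E7.5 WT libraries and 0 in both KO libraries. At the later stages they had at most 1 read in any library, too few to check the labels. Sox10 stood at 722 and 639 normalised reads in WT and 511 and 1165 in KO at E9.5, and between 662 and 1018 in every E8.5 library. The stages were normalised separately. At E9.5 all normalised values summed to 7392263 and 7499920 in WT and 13037864 and 14623235 in KO. Scaling to library totals would therefore lower the KO values of Sox10 relative to WT. Because these are bulk samples, fewer cells of a type and less RNA per cell cannot be told apart.

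The mature miR-302 sequences are shown first because they define the seed, the stretch that pairs with target messages. Capitals mark bases 2 to 8 of each RefSeq entry (GRCm38.p6). The entry for miR-302c starts 1 base later than the others, and miR-302a is named only.

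miR-302b-3p: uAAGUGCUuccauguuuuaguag
miR-302c-3p: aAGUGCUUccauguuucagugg
miR-302d-3p: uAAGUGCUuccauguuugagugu

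MiR-302b and miR-302d share the seed AAGUGCU. Its matches in DNA letters are AGCACTTA (8mer), and AGCACTT and GCACTTA (7mers), which were searched on the sense strand of the longest annotated 3′UTR of each gene, with the 7mers counted only outside an 8mer. A match was present in 18 of 56 Wnt pathway genes (32.1%) and in 3720 of 19932 genes with a 3′UTR (18.7%). An 8mer was present in 4 of the 56 (7.14%, against 3.10%), namely Fzd3, Fzd8, Gsk3b and Wnt7b. The 3′UTRs of the 56 were longer than those of all genes, with a median of 1843.5 bases against 1099, and the share was not adjusted for length. The following sites belong to genes with an 8mer or to genes called at E9.5, with the match in capitals.

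Fzd3: gtgtcagcagaAGCACTTActatgaaatca
Gsk3b: cgggaaagaccAGCACTTActtgagtgcca
Wnt7b: ctctggaggggAGCACTTAgccccaataaa
Dkk1: tcctcagtgtgGCACTTAcctgtaaatgc
Lef1: gtaaaaagcccAGCACTTgaattgttctt

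The Fzd3 match lies on the minus strand of chromosome 14 from 65195416 to 65195423, and that of Gsk3b on the plus strand of chromosome 16 from 38240604 to 38240611, 38 bases into the 3′UTR. The Wnt7b match lies on the minus strand of chromosome 15 from 85535468 to 85535475. The Dkk1 match runs from 30546962 to 30546968 on the minus strand of chromosome 19, and the Lef1 match from 131224078 to 131224084 on the plus strand of chromosome 3. All positions are GRCm38 (mm10). A match is a string of letters and not evidence of binding. The median log2 fold change (KO over WT) of tested Wnt pathway genes with and without a match was -0.09 and 0.11 in the youngest stage (13 and 34 genes). It was -0.03 and -0.18 in E8.5 cells (15 and 30 genes) and -0.93 and -1.13 in E9.5 cells (13 and 26 genes).

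Levels between genes were compared as RPKM, reads divided by the annotated exon length and by the library's total reads, and are given as the mean over WT libraries. At E9.5 RPKM values in KO therefore carry the library totals, unlike the normalised counts used for the tests. Ctnnb1, which encodes beta-catenin, was the highest Wnt pathway gene at every stage, with 115, 113 and 137 RPKM in order of age. The stages differ in tissue as well as age and were normalised separately, so their levels are placed side by side without a test.

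Different ligands led at each stage. Wnt1, which is expressed in the dorsal midline of the neural tube, was listed at 0 in both WT libraries at E7.5, was the highest ligand at E8.5 (20.4 RPKM), and stood at 1.36 at E9.5. Since the E8.5 gate uses its control sequences, and RNA of a transgene holding Wnt1 sequence would be counted with it, the E8.5 level cannot be told apart from the sort. Wnt5b was next at E8.5 (13.5 RPKM, against 5.71 at E7.5 and 3.88 at E9.5). Wnt5a led the ligands at E9.5 (10.1 RPKM), after 1.62 and 1.15 at the earlier stages. Wnt4 passed from 11.5 through 2.25 to 0.08 RPKM with age, and Wnt6 from 8.15 through 9.56 to 0.05. The E7.5 means of both rest on WT1, since WT2 alone gave 0.848 for Wnt4 and 2.24 for Wnt6.

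Several ligands had no library with more than 3 reads, the limit taken here for a gene that may be absent. At E7.5 these were Wnt1, Wnt7a, Wnt8b, Wnt9a, Wnt10b and Wnt16. At E9.5 these were Wnt2, Wnt8a, Wnt10a and Wnt10b. Every ligand exceeded 3 reads in some E8.5 library. Dkk4 was at or under that limit in every library of all stages.

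Among the receptors Fzd2 and Fzd7 were highest at each stage, with Fzd2 at 10.2, 40.8 and 28.3 RPKM and Fzd7 at 10.6, 13.1 and 19.9 in order of age. The leading secreted inhibitors at E7.5 differed from those at E8.5 and E9.5, which were the same. Sfrp5 and Dkk1, inhibitors of the anterior visceral endoderm, stood at 45.2 and 23.9 RPKM at E7.5, and at 0.80 and 2.29 at E9.5. The E7.5 mean of Sfrp5 rests on WT1 (81.0 RPKM), and in WT2 it stood at 9.45, below Dkk1 (32.0). Sfrp2 and Sfrp1, which bind Wnt proteins outside the cell, stood at 37.2 and 23.0 at E8.5 and at 20.6 and 20.4 at E9.5. Of the feedback targets, which are switched on by Wnt signals and mostly dampen them, Nkd1 led at E8.5 (19.6 RPKM) and Nkd2 at E9.5 (15.8, after 0.58 and 1.55).

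**Figure D1:**
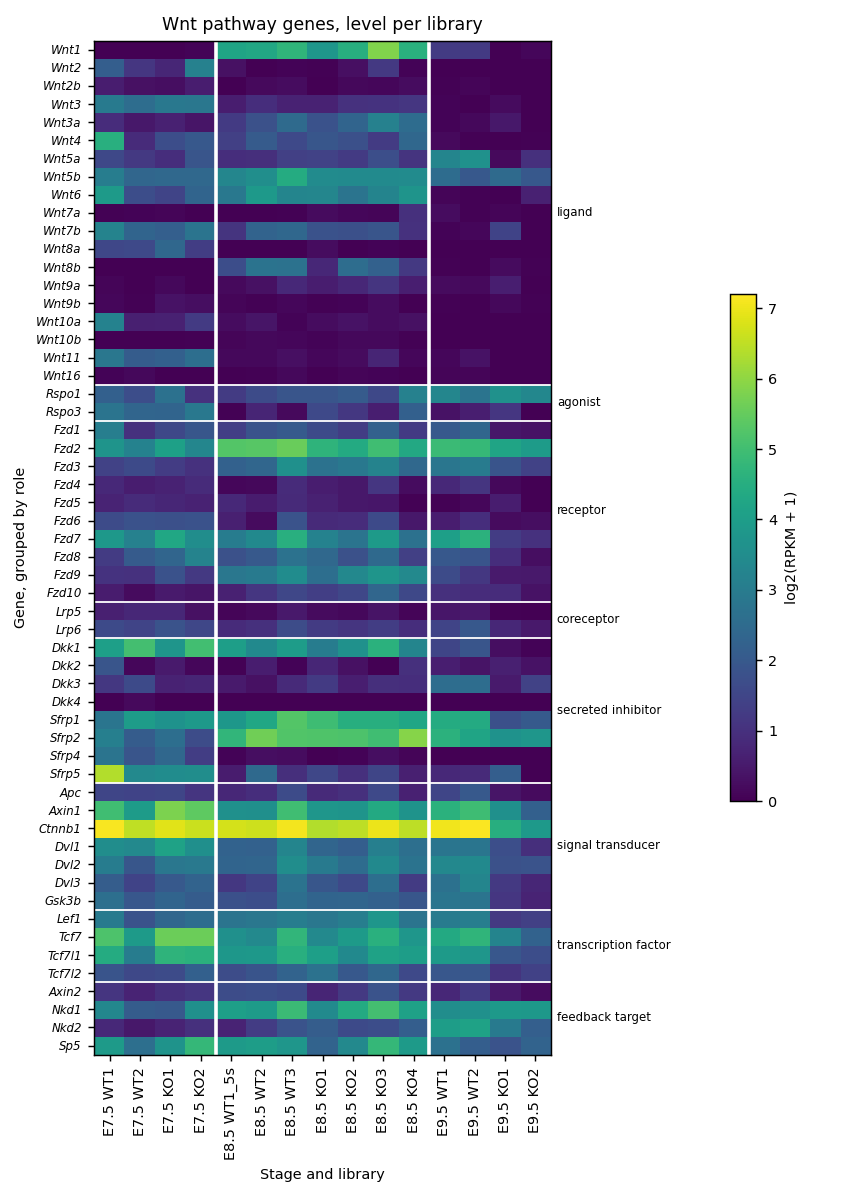
Level of each of the 56 Wnt pathway genes in every library, as log2(RPKM + 1), with genes grouped by role and libraries by stage (white lines). Ctnnb1 is brightest in the WT libraries of every stage but not in every KO library. Wnt1 is bright in the E8.5 libraries, and few ligands are visible at E9.5.

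At E7.5 no Wnt pathway gene passed the threshold in KO embryos. A gene was tested where its mean normalised value was at least 10, by limma on log2(value + 1), and called at an adjusted p below 0.05. Fold changes on this scale understate the change of low genes. Of 47 Wnt pathway genes tested, limma called 0, beside 0 of 12492 genes in all (0%). Unadjusted p-values below 0.05 were found for 3 of the 47, all higher in KO, against 3.08% of all genes (2.18% higher, 0.905% lower). EdgeR called 0 of the 47 and 0% of all genes, and DESeq2 0 and 0.248%. The genotypes were fully separated in 7 genes that were higher and 2 that were lower in KO, against 28.7% of all genes (16.1% higher, 12.7% lower). The log2 fold change was negative for 22 of the 47, against 51.1% of all genes, and its median was 0.06, against -0.01.

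Among the 6 smallest p-values were a scaffold protein and a pair of Tcf factors. Axin1, the scaffold of the destruction complex, stood at 754 and 410 normalised reads in WT1 and WT2 and at 1401 and 1125 in KO1 and KO2 (log2 fold change 1.17, SE 0.36, limma adjusted p = 1). Both KO libraries were above both WT libraries. Tcf7, a transcription factor that binds beta-catenin, stood at 602 and 276 in WT and 846 and 867 in KO (1.07, SE 0.39). Its relative Tcf7l1, which acts mainly as a repressor, stood at 521 and 210 in WT and 664 and 639 in KO (0.98, SE 0.43). In both cases the groups did not overlap and WT2 was the low library.

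The receptor gene Fzd8 stood at 54.1 and 141 in WT and 167 and 349 in KO (1.46, SE 0.54), again without overlap. Dkk3, a divergent Dickkopf protein, stood at 26.7 and 51.5 in WT and 13.9 and 16.0 in KO (-1.26, SE 0.59), and was the gene in this group that stood lower. Sp5, a transcription factor switched on by Wnt signals, stood at 190 and 81.7 in WT and 173 and 400.0 in KO (1.07, SE 0.53). Its groups overlapped, since WT1 was above KO1. The limma adjusted p was 1 for each of these 5 genes.

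**Figure D2:**
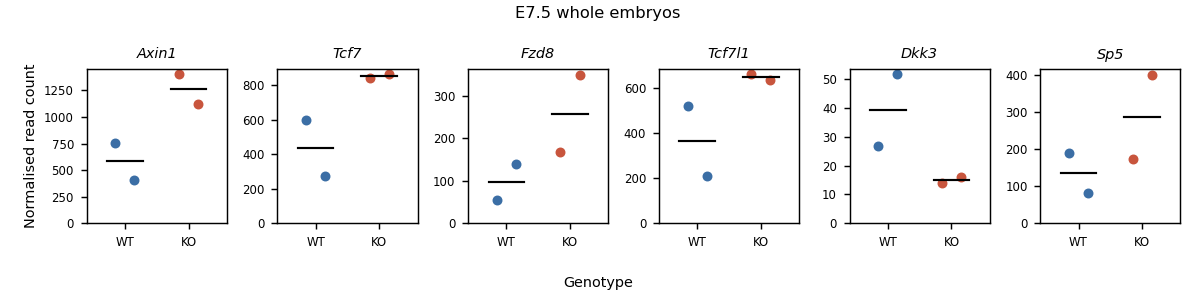
Normalised read counts of the 6 Wnt pathway genes with the smallest p-values at E7.5, with 1 point per library (2 WT, 2 KO) and a bar at the mean. None passed the threshold, and the values overlap for Sp5 only.

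The E7.5 library WT1 stood far above the others for several ligands and inhibitors. Wnt4 stood at 601 in WT1 and at 26.4, 64.0 and 88.1 in WT2, KO1 and KO2. Sfrp5 stood at 994 in WT1 and at 133, 135 and 141 in the others. Without WT2 limma called it lower in KO, 1 of 12 genes called in all, but WT is then WT1 alone and the spread comes from the KO libraries, so the call restates the high WT1 value. WT1 was also the highest library for Wnt6 (199, against 26.4 to 61.7), Wnt10a (129, against 9.74 to 23.2) and the receptor gene Fzd1 (204, against 32.7 to 83.3). Maternal and placental markers also differed between libraries, and WT1 was the highest library for neither set. The 9 trophoblast markers summed to 2096 and 1271 RPM (reads scaled to a common library total) in WT and 4677 and 7878 in KO, and the 9 uterine and decidual markers to 1229 and 1481 in WT and 952 and 863 in KO. WT1 was the highest library for endothelial markers (195 RPM, against 28.8, 104 and 153 in WT2, KO1 and KO2). For visceral endoderm markers it was the lowest (1040 RPM, against 2097, 1705 and 1186). The part of all these markers in the differences was not tested.

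In Wnt1-Cre cells at E8.5 the receptor gene Fzd2 had the smallest p-value, with lower levels in KO, and no Wnt pathway gene passed the limma threshold. Limma called 0 of 45 tested Wnt pathway genes and 0 of 12257 genes in all (0%). Unadjusted p-values below 0.05 were found for 4 of the 45 (1 higher, 3 lower in KO), against 6.05% of all genes (3.14% higher, 2.91% lower). EdgeR called 0 of the 45 and 0% of all genes, and DESeq2 called 1, Fzd2, and 0.229%. The genotypes were fully separated in 2 genes, Fzd2 and Ctnnb1, both lower in KO, against 6.54% of all genes (3.71% higher, 2.82% lower). The log2 fold change was negative for 26 of the 45, against 53.1% of all genes, and its median was -0.05, against -0.03.

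Fzd2 (ENSMUSG00000050288.6, chromosome 11, 102604396 to 102608058, plus strand) encodes a receptor with a single coding exon. It stood at 1672, 1737 and 1517 in WT1_5s, WT2 and WT3 and at 929, 769, 910 and 792 in KO1 to KO4. Every KO library was below every WT library, with means of 1642 and 850 and a 1.93-fold difference (log2 fold change -0.95, SE 0.18, 95% interval -1.36 to -0.55). The limma adjusted p was 0.534, edgeR gave 0.605 and DESeq2 gave an adjusted p of 0.000729. In the authors' deposited table Fzd2 has a log2 fold change of -0.949 and an adjusted p of 0.00166. Leaving out any single library gave a log2 fold change between -1.01 and -0.91, and leaving out KO1 and KO2 together gave -0.95. KO1 and KO2 carried erythroid markers at 1649 and 2516 RPM, and KO4 at 98.2, where the WT libraries had at most 0.864 and KO3 had 1.78. The fit without KO1 and KO2 still holds KO4. Only the code number 169 was shared by the genotypes, with Fzd2 at 1737 in WT2 and 792 in KO4. With codes 163 and 169 as a factor, limma called 0 Wnt pathway genes, beside 0% of all genes.

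Ctnnb1 (ENSMUSG00000006932.17, chromosome 9, 120929216 to 120960507, plus strand) stood at 6704, 6331 and 6276 in WT and 4337, 4772, 5367 and 5115 in KO. The groups did not overlap, and the difference was 1.32-fold (limma adjusted p = 0.842). It was named for its lack of overlap after its values were seen. Fzd7, another beta-catenin-linked Frizzled receptor, stood at 394, 537 and 914 in WT and 380, 279, 517 and 272 in KO (log2 fold change -0.72, SE 0.33, limma adjusted p = 0.815). Here KO3 lay among the WT libraries and WT3 was far above the others.

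Rspo3, an R-spondin that keeps Frizzled receptors on the cell surface, stood at 1.35, 25.8 and 3.91 in WT and 63.5, 40.6, 13.2 and 123 in KO (log2 fold change 2.78, SE 0.89, limma adjusted p = 0.807). WT2 overlapped KO3. Axin2, the feedback copy of Axin1 that Wnt signals switch on, stood at 146, 154 and 103 in WT and 38.4, 74.9, 117 and 78.8 in KO (-0.87, SE 0.37, limma adjusted p = 0.815). KO3 lay within the WT range. Fzd5 stood at 65.0, 39.3 and 49.9 in WT and 40.7, 28.1, 19.2 and 2.32 in KO (-1.60, SE 0.75), and Nkd2, a Dishevelled-binding inhibitor, at 37.9, 82.3 and 113 in WT and 165, 104, 89.6 and 185 in KO (0.87, SE 0.41). Both overlapped between genotypes.

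**Figure D3:**
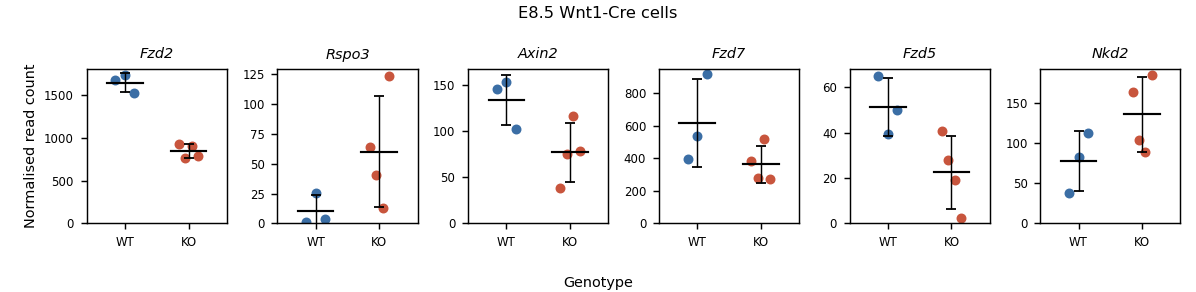
Normalised read counts of the 6 Wnt pathway genes with the smallest p-values at E8.5, with 1 point per library (3 WT, 4 KO), a bar at the mean and error bars of 1 SD. The KO points of Fzd2, from 769 to 929, lie below the WT points, from 1517 to 1737, and the other genes overlap.

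WT3 stood apart for some transducers. Axin1 stood at 520, 515 and 1068 in WT and 504, 488, 608 and 507 in KO, and Dvl3 at 98.9, 133 and 332 in WT and 183, 136, 266 and 97.4 in KO, so WT3 was the highest library for both. Over all genes, how far a library lay above the stage mean correlated with transcript length at a Spearman rho of 0.497 in WT3 and 0.473 in KO3, against -0.438 in WT1_5s, -0.374 in WT2 and -0.415 in KO4. Its part in these values was not tested. Of the ligands, Wnt1 stood between 313 and 1094 in KO and 503 and 543 in WT, and all 10 tested ligands overlapped between genotypes. Wnt7a stood at 0, 0 and 0.978 in WT and 5.49, 3.12, 1.80 and 34.8 in KO, below the minimum mean for a test, although the authors' deposited table lists it as higher in KO with an adjusted p of 0.303.

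In Sox10-positive cells at E9.5, some calls were made both with and without a correction for transcript length. They were lower levels in KO for Ctnnb1, Tcf7l1, Dkk1 and the receptor genes Fzd7 and Fzd1, and a higher level for Nkd1. Nkd1 was not called when libraries were scaled to their totals. Limma called 15 of 39 tested Wnt pathway genes, 13 lower and 2 higher in KO, beside 47.5% of all 12000 genes (23% lower, 24.5% higher). The share of Wnt pathway genes called in either direction was 38.5%, below that of all genes, and the share called lower was 33.3%. Unadjusted p-values below 0.05 were found for 21 of the 39 (2 higher, 19 lower), against 56.7% of all genes (28.3% in each direction). EdgeR called 14 of the 39, against 45.6% of all genes, and DESeq2 15, against 48.9%. The genotypes were fully separated in 26 genes that were lower and 4 that were higher in KO, against 80.3% of all genes (41.7% lower, 38.6% higher). The median log2 fold change was -1.08, against -0.14 over all genes, and 30 of 39 were negative, against 52.7% of all genes.

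These calls stand beside large differences between the libraries. At E9.5 both KO libraries carry the code number 171 in the labels and both WT libraries 209, so whatever the code marks and the genotype cannot be told apart. Across 11557 genes the Spearman correlation of the log2 fold change with transcript length was -0.641, a description over genes of 4 libraries, and across the 39 Wnt pathway genes it was -0.390. Ribosomal protein genes took 5.33% and 5.0% of reads in WT and 16.3% and 15.5% in KO. The normalised values summed to 7392263 and 7499920 in WT and 13037864 and 14623235 in KO. Erythroid markers summed to 20998 RPM in KO1 and 20.5 in KO2, and 5 of 5 tested visceral endoderm markers were called higher in KO. The 10 dorsal neural and early crest markers summed to 408 and 418 RPM in WT and 88.4 and 114 in KO. On the normalised scale used for the tests the same sums were 3013 and 3134 in WT and 1153 and 1668 in KO. Sox9 (1432 and 333 on average) was the main part, whereas Foxd3 and Tfap2a overlapped between genotypes with higher KO means. The 8 crest glial lineage markers summed to 400 and 385 RPM in WT and 152 and 247 in KO. On the normalised scale these sums overlapped, at 2956 and 2891 in WT and 1977 and 3611 in KO. Their part in the results was not tested, other than by the fits that follow.

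**Figure D4:**
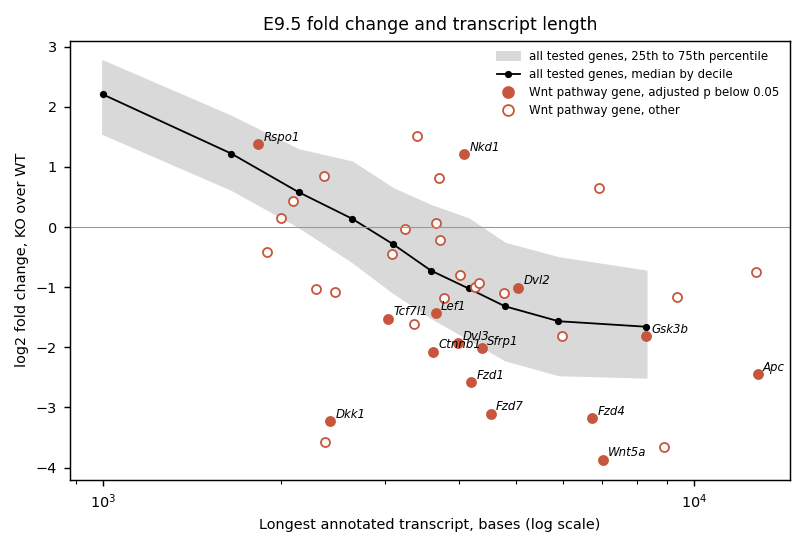
Log2 fold change (KO over WT) at E9.5 against longest annotated transcript (log axis) for the 39 tested Wnt pathway genes, over the median and the 25th to 75th percentiles of all tested genes in 10 bins of length. The median of all genes runs from 2.21 in the shortest bin to -1.66 in the longest, and 15 of the 39 Wnt pathway genes lie below the 25th percentile of their bin.

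With a trend over transcript length removed from each library, 7 of 39 Wnt pathway genes were called in place of 15, while the share of all genes called went from 47.5% to 24%. The share called lower was then 12.8% of the 39, close to the 11.1% of all genes. In the main fit these shares were 33.3% and 23%. Ctnnb1, Fzd7, Fzd1, Dkk1 and Tcf7l1 stayed lower, and Nkd1 stayed higher. Fzd3, which stood at 580 and 668 in WT and 438 and 311 in KO (log2 fold change -0.75, limma adjusted p = 0.0589), turned to 0.75 and was called higher (adjusted p = 0.0450). The sign changed for 8 of the 39 in that fit. The median of the 39 moved to -0.39 and that of all genes to -0.15. Compared with genes of like length, 23 of the 39 lay below the median of their bin, 15 below its 25th percentile and 4 above its 75th. When libraries were scaled to their totals, which moved the median log2 fold change of all genes from -0.14 to -1.01, 25 Wnt pathway genes were called and all were lower, beside 55.9% of all genes called. The split of all called genes then became 1622 higher and 5085 lower, from 2944 higher and 2756 lower. Leaving out WT1 left 2 calls (Ctnnb1 and Fzd7), and leaving out WT2 left 3 (those and Sfrp1), beside 16.8% and 16.0% of all genes. The count rose to 24 when KO1 was dropped and to 23 when KO2 was, beside 73.5% and 63.4% of all genes. In these fits the spread of the single remaining library is taken from the other group.

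Of the ligands, 1 of 4 tested was called. Wnt5a (ENSMUSG00000021994.15, chromosome 14, 28504750 to 28527448, plus strand) stood at 502 and 674 in WT, against 12.7 and 116 in KO. Both KO libraries were far below both WT libraries and differed widely from each other. The log2 fold change was -3.87 (SE 1.0, limma adjusted p = 0.0275), -2.32 without KO1 and -5.41 without KO2. It was -2.35 with the length trend removed, where the adjusted p was 0.206. Wnt5b, by contrast, stood at 94.2 and 59.0 in WT and 162 and 114 in KO (0.85, adjusted p = 0.154). Wnt1, near the detection limit in KO, stood at 24.3 and 23.7 in WT and 0 and 3.40 in KO (limma adjusted p = 0.0515).

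Among the receptors 3 of 10 were called, all lower in KO. Fzd7 (ENSMUSG00000041075.8, chromosome 1, 59482424 to 59486955, plus strand) stood at 532 and 812 in WT and 83.4 and 68.0 in KO, an 8.62-fold difference (log2 fold change -3.11, SE 0.33, limma adjusted p = 0.00222). It was -2.09 with the length trend removed (adjusted p = 0.0119) and between -3.41 and -2.80 when single libraries were left out. Fzd1 stood at 95.2 and 133 in WT and 19.0 and 17.0 in KO (-2.58, SE 0.50, limma adjusted p = 0.0120), and at -1.73 with the length trend removed (adjusted p = 0.0494). Fzd4, known also as the Norrin receptor, stood at 38.5 and 58.0 in WT and 9.5 and 1.70 in KO, where it rested on 10 reads in all (-3.18, limma adjusted p = 0.0413). Its length-adjusted value was -1.68 (adjusted p = 0.180).

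Fzd2, the receptor with the smallest p-value at E8.5, did not pass the threshold here. It stood at 793 and 749 in WT and 830 and 779 in KO (log2 fold change 0.06, SE 0.18, 95% interval -0.38 to 0.50, limma adjusted p = 0.786). The groups overlapped. With libraries scaled to their totals it was called lower, one of the 25 called there.

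The coreceptors Lrp5 and Lrp6 were both lower without passing. Lrp6 stood at 182 and 304 in WT and 132 and 83.3 in KO (limma adjusted p = 0.0696), and Lrp5 at 25.3 and 30.3 in WT and 4.22 and 0 in KO (adjusted p = 0.0507). Of the 2 agonists Rspo1 was called higher in KO. It stood at 128 and 85.3 in WT and 289 and 257 in KO (log2 fold change 1.38, SE 0.34, limma adjusted p = 0.0236). Its longest transcript has 1834 bases, against a median of 3351, and the value was 0.27 with the length trend removed and 0.49 under scaling to library totals, neither of them called. The secreted inhibitor Sfrp1 stood at 669 and 656 in WT and 134 and 199 in KO (-2.01, SE 0.28, limma adjusted p = 0.00461), and at -1.07 with the length trend removed (adjusted p = 0.0958). Its relative Sfrp2 stood at 380 and 279 in WT and 327 and 403 in KO, overlapping. Dkk1, which blocks the Lrp coreceptors, stood at 33.4 and 49.5 in WT and 6.33 and 1.70 in KO, where it rested on 7 reads in all (-3.23, SE 0.89, limma adjusted p = 0.0331). Its length-adjusted value was -3.67 (adjusted p = 0.0421).

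For all 7 signal transducers both KO libraries lay below both WT libraries, as they did for 41.7% of all genes. Limma called 5 of the 7, all lower, beside 23% of all genes called lower. With the length trend removed, only Ctnnb1 of these 5 was called. Ctnnb1 stood at 5055 and 5516 in WT and 1489 and 1059 in KO, a 4.2-fold difference (log2 fold change -2.07, SE 0.21, limma adjusted p = 0.00190). It was called in every fit that left out 1 library (-2.32 to -1.83) and with the length trend removed (-1.56, adjusted p = 0.00663). Gsk3b, the kinase of the destruction complex, stood at 430 and 425 in WT and 155 and 93.5 in KO (-1.82, SE 0.34, limma adjusted p = 0.0103), and at -0.30 with the length trend removed (adjusted p = 0.430). Apc, its partner scaffold, stood at 220 and 364 in WT and 69.7 and 37.4 in KO (-2.45, SE 0.48, limma adjusted p = 0.0121), and at -0.94 with the length trend removed (adjusted p = 0.0980).

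Of the Dishevelled genes, which carry the signal from Frizzled, 2 of 3 were called. Dvl3 stood at 259 and 419 in WT and 108 and 68.0 in KO (-1.93, SE 0.41, limma adjusted p = 0.0150). It was not called with the length trend removed. Dvl2 stood at 428 and 461 in WT and 203 and 240 in KO (-1.01, SE 0.24, limma adjusted p = 0.0214), and its sign turned to 0.22 with the length trend removed (adjusted p = 0.647). Dvl1 (221 and 224 in WT, 152 and 69.7 in KO) and Axin1 (662 and 865 in WT, 556 and 202 in KO) were lower without passing, with limma adjusted p-values of 0.0950 and 0.105.

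Of the transcription factors Lef1 and Tcf7l1 were called lower. Lef1, a beta-catenin partner, stood at 452 and 492 in WT and 150 and 202 in KO (-1.43, SE 0.27, limma adjusted p = 0.0109), and at -0.90 with the length trend removed (adjusted p = 0.0936). Tcf7l1 stood at 415 and 379 in WT and 147 and 128 in KO (-1.53, SE 0.26, limma adjusted p = 0.00805), and at -1.44 with the length trend removed (adjusted p = 0.0178). Tcf7 missed the threshold (adjusted p = 0.0760), and Tcf7l2 stood at 188 and 191 in WT and 127 and 211 in KO, overlapping.

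Of the feedback targets 1 of 4 was called, and it was higher in KO. Nkd1 stood at 358 and 385 in WT and 827 and 896 in KO, a 2.31-fold difference (log2 fold change 1.21, SE 0.19, limma adjusted p = 0.00668), and at 2.0 with the length trend removed (adjusted p = 0.00916). Under scaling to library totals it was 0.32 and not called (adjusted p = 0.181). Axin2 stood at 30.4 and 55.5 in WT and 29.6 and 13.6 in KO (-0.995, adjusted p = 0.281), Nkd2 at 535 and 602 in WT and 421 and 250 in KO (-0.80, adjusted p = 0.0830), and Sp5 at 85.1 and 54.0 in WT and 70.7 and 119 in KO (0.43, adjusted p = 0.488). Of these only Sp5 overlapped between genotypes.

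**Figure D5:**
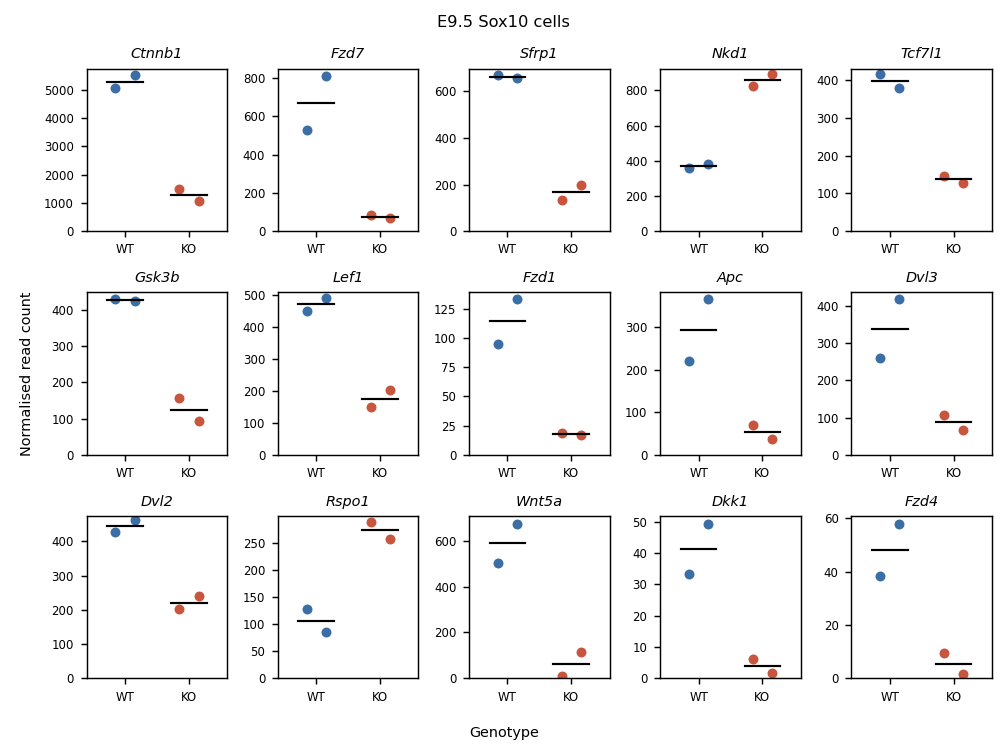
Normalised read counts of the 15 Wnt pathway genes called at E9.5, with 1 point per library (2 WT, 2 KO) and a bar at the mean. Nkd1 and Rspo1 are higher in both KO libraries, and the other 13 genes are lower, of which Dvl2 turns to 0.22 (log2 fold change) with the length trend removed.

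Some genes stood far higher in KO1 than in any other library at E9.5. Wnt7b stood at 110 in KO1, 0 in KO2, and 2.03 and 3.53 in WT. Sfrp5 stood at 85.5 in KO1, 0 in KO2, and 11.1 and 11.6 in WT, and Fzd5 at 44.3 in KO1, 0 in KO2, and 2.03 and 5.05 in WT. Markers of surface ectoderm summed to 103 RPM in that library and to 8.37, 8.63 and 10.03 in KO2, WT1 and WT2. Their part in these values was not tested. Wnt7b is one of 3 Wnt pathway genes that the authors' deposited table lists as higher in KO at E9.5, with an adjusted p of 0.0613, and 20 are listed as lower. The authors' deposited tables list 3548 genes as higher and 3282 as lower in all, by unadjusted p, and 2 of the 3 and 13 of the 20 have an adjusted p below 0.05 there.

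The promoters of Dkk1 and Sp5, 250 bases before to 50 after the RefSeq start, are shown because they hold a TCF/LEF motif (CTTTGAT or CTTTGAA, searched on both strands) and because Dkk1 was called lower at E9.5 and Sp5 was not called. The motif is in capitals. The Dkk1 window lies on the minus strand of chromosome 19 from 30549447 to 30549746 and the Sp5 window on the plus strand of chromosome 2 from 70474673 to 70474972 (GRCm38.p6).

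Dkk1: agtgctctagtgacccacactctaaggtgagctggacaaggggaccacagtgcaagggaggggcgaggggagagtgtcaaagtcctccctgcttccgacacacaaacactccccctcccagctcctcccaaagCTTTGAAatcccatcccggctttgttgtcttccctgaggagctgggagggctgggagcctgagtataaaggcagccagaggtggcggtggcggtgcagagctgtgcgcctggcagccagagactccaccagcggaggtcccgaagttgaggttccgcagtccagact
Sp5: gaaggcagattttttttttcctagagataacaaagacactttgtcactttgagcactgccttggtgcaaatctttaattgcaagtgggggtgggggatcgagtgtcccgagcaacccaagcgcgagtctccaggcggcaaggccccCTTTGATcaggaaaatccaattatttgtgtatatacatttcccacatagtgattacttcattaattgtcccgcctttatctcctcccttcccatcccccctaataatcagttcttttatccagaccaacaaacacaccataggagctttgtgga

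Of 39 Wnt pathway genes with a promoter in the table, 4 held the motif, the others being Wnt5b and Wnt11. That is 8.33% of their 48 promoters, against 8.65% of all 32851 promoters of this length. A match is a description of letters and not a binding site.

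A further 75 genes of the pathway, from a list made for this comparison, were counted in the same fits. At E7.5 limma called 0 of 59 tested and at E8.5 0 of 66. An unadjusted p below 0.05 was found for 3 and 4, against 3.08% and 6.05% of all genes. At E9.5 it called 23 of 55, 19 lower and 4 higher (41.8%, against 47.5% of all genes). The 8 with the smallest p-values are given, without their length-adjusted values, so which of them keep their call in that fit is not shown. Ror1, a receptor for Wnt5a, had mean normalised counts of 378 ± 34.5 for WT against 33.4 ± 0.903 for KO (SD, n = 2 per genotype). Those of Ptk7, a polarity coreceptor, were 393 ± 60.6 and 97.6 ± 8.24. The adjusted p-values by limma were 0.00179 and 0.00518. Also called lower were the corepressor Tle4 (6.35-fold), the cell-surface proteoglycan Gpc3 (3.33-fold), the Dishevelled-binding Dact1 (6.66-fold) and the polarity gene Prickle1 (7.83-fold). Higher were Ctnnbip1, an inhibitor of beta-catenin and Tcf binding (2.88-fold), and Id2, a helix-loop-helix inhibitor and reported Wnt target (3.19-fold). With the length trend removed 15 of the list were called, 9 of them lower, beside 24% of all genes. The same library differences stand beside these counts.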

How the data were processed

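Total RNA was amplified from whole embryos or sorted cells with SMART-Seq v4 and tagged by Nextera XT, per the labels' protocols. Strand was not kept, so reads of overlapping antisense genes cannot be told apart. FastQC 0.11.5, STAR 2.7.0f and mm10 are named in the submitters' processing notes. Which read counter, annotation and normaliser the authors used is not given in the sources used here.

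Per stage, the authors deposited a table of normalised signal (read counts divided by 1 factor per library). Dividing by the value of 1 read returned whole reads for 100% of values (tolerance 0.01 read), which gave the depths. The authors also deposited tables of selected genes with a mean signal, a log2 fold change, its test score, and unadjusted and adjusted p-values, and these were used for comparison only. The E7.5 tables of this kind were not used, since their means matched the E7.5 signal for 0.0892% of 3365 genes.

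Each stage was fitted on its own. Values were analysed as log2(value + 1) for genes with a mean of at least 10, with limma 3.58.1 (R 4.3.3, trended empirical Bayes, two-sided, no covariate) and Benjamini-Hochberg adjustment over all genes tested at 0.05. Of the 56 genes 47, 45 and 39 were tested in order of age. EdgeR 4.0.16 (quasi-likelihood), DESeq2 1.42.0, other pseudocounts (8 and 0.1), minima (100 or none), scalings, a loess trend (span 0.3) over transcript length, a replicate block, code numbers and each library left out were alternatives. The crossed block and scaling to library totals were added after seeing the data. The main limma fit was run on simulated data, with results not given here, and the alternatives were not. RPKM used recovered reads and GENCODE M21 exon lengths, and 23334 of 24421 symbols matched.

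Fold changes were named for every called gene and, where fewer than 6 were called, for the 6 smallest p-values. Levels were named for the 2 highest genes of a role. Of the further pathway genes, the 8 called with the smallest p-values were named. The genes, lists and rules were chosen with earlier results of these data known. Some genes named for their values were chosen after those were seen. Replicate libraries differed by more than sampling noise (chi-square per gene 8.67 to 98.4). Figures were drawn with matplotlib 3.10.9 in Python 3.11.15.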

Additional observations from a re-analysis of the deposited data

Results flagged for a closer look

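In the E8.5 KO group, the only group of at least 4 libraries, 2 of 45 Wnt pathway genes had 1 library far from the other 3. Axin1 stood at 608 in KO3 and at 488 to 507 in the others, and Fzd9 at 121 in KO1 and at 221 to 240 in the others. Chance gives such a gap in about 1 group in 20.

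For 7 genes every KO library was above every WT library at E7.5 and below every WT library at E9.5. They are 18.9% of the 37 tested at both stages, and 7.45% of all 11012 genes tested at both showed this pattern. The difference between the stages was not tested, and the stages differ in tissue. The log2 fold change at E9.5 minus that at E7.5 was -2.35 for Axin1, -1.54 for Dvl1, -3.26 for Fzd8, -1.76 for Fzd9, -1.38 for Lrp6, -2.15 for Tcf7 and -2.51 for Tcf7l1. Only Tcf7l1 at E9.5 was called by limma at either stage. Over all genes the E9.5 log2 fold change correlated with transcript length (-0.641), and trophoblast markers summed higher in KO at E7.5. Of these 7 genes, Fzd9, Tcf7 and Tcf7l1 lay below the 25th percentile of their length bin at E9.5, and the others did not. The part of length and of these markers was not tested.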

How the results depend on the processing

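At E7.5 the named genes kept their direction and side of the threshold under every alternative run. The count of Wnt pathway genes called by limma was 0, or 0 to 1 when single libraries were left out, and the range for the further pathway genes was also 0 to 1. At E8.5 the count was 1 with DESeq2 and 1 with the replicate block, Fzd2 each time, beside 0.228% and 5.41% of all genes. That block leaves out KO4, whose number no WT library has, and the further pathway genes gave 3 with it. At E9.5, where 15 Wnt pathway genes and 23 further genes were called, the counts were 7 and 15 with the length trend removed. The Wnt pathway count was 25 under scaling to library totals, 23 at a threshold of 0.1, 18 with the replicate block and 23 with the crossed block, beside 55.9%, 58.5%, 47.7% and 55.5% of all genes. Leaving out single libraries gave 2 to 24 and 7 to 41. Of the 15 called genes Dvl2 reversed, at 0.22 with the length trend removed. Among the others, not called in the main fit, Fzd3 (0.75) changed sign and was called with the length trend removed. Fzd2 (-0.83) did so under scaling to library totals. Rspo3 (2.36) and Sfrp5 (2.81) were among those that changed sign without KO2, where KO1 alone is left. The cause of these shifts was not tested.

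Of the named E9.5 values 195 stayed on their side of the threshold and 41 lost it. For the pairing, no label gives the replicate numbers a shared meaning. Same-numbered libraries' deviations correlated at -0.116 at E7.5, -0.171 at E9.5 and 0.0759, -0.0248 and 0.554 at E8.5, where of the pairs only WT3 and KO3 matched their own number best. At E9.5 Dkk1, Fzd1, Fzd4, Lrp5 and Wnt1 rest on 7, 28, 10, 4 and 2 KO reads in all.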
